A study of Mus musculus with 8 samples.

Results

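Genes of the type I interferon response were compared in spleen between male mice that carry Yaa and males that do not. Yaa is a Y chromosome known to carry a copied segment of the X chromosome that holds Tlr7, an RNA receptor able to switch on interferon production. The genes were chosen as a list of 31 symbols, and every probe set that the platform annotation maps to exactly 1 of them was taken. This gave 40 probe sets of 26 genes, out of 18193 genes with such a probe set, and 37 probe sets of 25 genes were bright enough to be tested among 22518 probe sets of 10340 genes. Isg15 and Ly6c1 have only probe sets shared with another symbol, no probe set was named for Oas1g, Ifi44 or Ly6a, and Mx2 fell below the filter. The immunity-related GTPases, guanylate-binding proteins, Ifi200 and Ifitm families were not part of the list.

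The wild-type group held 4 C57Bl/6J samples and the Yaa group held 4 samples of the strain B6.SB-Yaa/J, all from males aged 8 weeks, with 1 Affymetrix array each. Per the labels, the cells were whole spleen suspensions after red cell lysis. Each sample came from 1 mouse, except that Yaa 3 pooled 2 spleens. No sample of either group was labelled as treated, infected or given interferon, and what else differs between the strains was not analysed here, so a difference between the groups need not come from the Yaa chromosome. With 4 arrays a group, their number limits how precisely any difference is known.

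Type I interferons bind a shared receptor and activate a complex that includes STAT2 and IRF9. That complex binds a DNA element in the promoters of many genes, the interferon-stimulated response element. The products include sensors of viral nucleic acid, enzymes that degrade or block viral RNA, and proteins that amplify or restrain the response. In lupus, and in mouse models that overreact to RNA through TLR7, raised levels of these transcripts in blood or spleen cells are known as an interferon signature.

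The response element was searched for as GAAA, any 2 bases and GAAA again, or its reverse complement with TTTC at both ends, from 250 bases before to 50 bases after the start site, in RefSeq promoters of GRCm38.p6. Of the 25 tested genes, 19 had a promoter in the table, and 10 of these, or 52.6%, held a match, against 3.99% of all genes with a promoter there. The genes with a match were Bst2, Ddx58, Ifih1, Ifit1, Ifit3, Oas1a, Oas3, Rsad2, Stat2 and Trim30a. The 6 with the smallest p in the comparison of Yaa with wild type are shown, 5′ to 3′ in the direction of the gene, with the matches in capitals, so that the letters of each match and their place can be read. They were taken from the genes that hold a match, so that all 6 hold one follows from this choice, and the other 9 tested genes with a promoter held none.
Oas1a, minus strand, chr5:120907526-120907575: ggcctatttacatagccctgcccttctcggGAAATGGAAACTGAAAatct
Bst2, minus strand, chr8:71537557-71537632: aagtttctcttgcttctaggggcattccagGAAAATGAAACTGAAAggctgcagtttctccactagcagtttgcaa
Ifit3, plus strand, chr19:34583343-34583446: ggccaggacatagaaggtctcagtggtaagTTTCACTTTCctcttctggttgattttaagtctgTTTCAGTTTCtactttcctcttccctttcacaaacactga
Ifit1, plus strand, chr19:34640755-34640843: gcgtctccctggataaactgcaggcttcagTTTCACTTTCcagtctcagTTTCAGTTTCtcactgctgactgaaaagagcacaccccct
Oas3, minus strand, chr5:120777695-120777764: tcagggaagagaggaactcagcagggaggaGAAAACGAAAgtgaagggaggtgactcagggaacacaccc
Ddx58, minus strand, chr4:40239804-40239833: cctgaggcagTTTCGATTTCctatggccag
In Oas1a and Bst2 there were 2 overlapping matches that share a GAAA. In Ifit3 and Ifit1 the 2 matches were separate and read TTTCACTTTC and TTTCAGTTTC in both genes. In Ddx58 the match began at base 3 of the transcript. A match is a description of the letters and was not tested for binding, and the absence of one in Oasl2 or Irf7 says only that these letters are not in this window.

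A pair of the Yaa arrays differed from all others over the tested probe sets. On the first principal component, with 56.8% of the variance, Yaa 2 lay at 68.8 and Yaa 3 at -92.4, and the remaining 6 arrays lay between -18.4 and 20. limma array weights, which lower the influence of arrays that fit the group means poorly, were 0.218 for Yaa 2 and 0.223 for Yaa 3 and ran from 0.836 to 2.73 for the other arrays. B cell markers, which a spleen sample should hold, had a summed signal of 436.4 in Yaa 3 against 12440 to 21190 in the other 7 samples. T cell markers stood at 484.5 there against 5346 to 12170, and plasma cell markers at 1341 against 5306 to 12110. These markers go against the label of Yaa 3 as whole spleen, and what this sample held was not tested. For each interferon response gene's brightest probe set, the difference without these 2 arrays is also given where it moved by over 1.5 times. This setting was chosen after seeing the data. Dimmer probe sets, genes of other lists and cell type markers are given only with these arrays included.

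Most interferon response genes had higher means in Yaa, but none passed the test across the array. Of the 25 tested genes, 20 had a higher mean in Yaa, where 45.8% of all tested genes did. Their median log2 fold change was 0.24, against -0.02 over all tested genes, on the scale of log2(signal + 16). Rtp4 was the most different, at 1.98-fold, followed by Oas1a, Oasl2 and Bst2 at about 1.5-fold. limma called 0 of the 25 at an adjusted p under 0.05, where 0.00444% of all probe sets were called (1 probe set, not of these genes), and the smallest adjusted p among them was 0.412. At an unadjusted p under 0.05 limma listed 4 of 25 on the higher side, where 3.23% of genes were listed, and 0 on the lower side, where 1.62% were. In bulk spleen RNA, more cells of a type and more RNA per cell cannot be told apart.

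**Figure D1:**
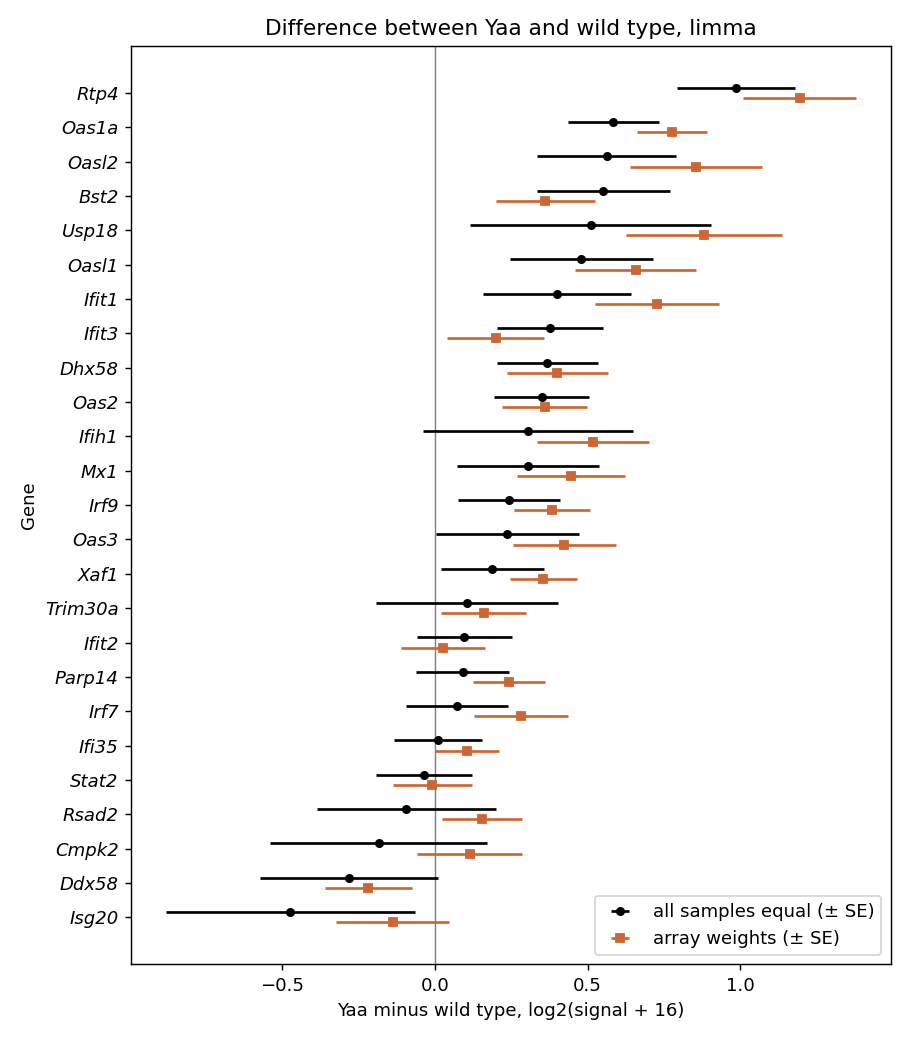
Yaa minus wild type for the 25 tested genes on the log2(signal + 16) scale, one gene per row, from limma with all samples equal (black circles, bars are SE) and with array weights (orange squares, bars are SE). Of the black circles 20 lie to the right of 0, Rtp4 farthest at 0.99, and with array weights 22 do.

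The Yaa samples differed in how many of the genes they held above wild type. Yaa 1 had 17 of 25 genes above all 4 wild-type samples, where 18.3% of all genes were, and Yaa 4 had 19, where 19% were. Yaa 3 had 15, where 43% were, and Yaa 2 had 9, where 36.4% were. For Yaa 2 the share was thus close to that of all genes. On the other side, 2 genes in Yaa 1, 7 in Yaa 2, 5 in Yaa 3 and 1 in Yaa 4 were below all wild-type samples, where 22.4%, 36%, 28.2% and 23.5% of all genes were. In 14 of the 25 genes both Yaa 1 and Yaa 4 were above every wild-type sample (Cmpk2, Ifit1, Irf9, Oas1a, Oas2, Oas3, Oasl1, Oasl2, Parp14, Rsad2, Rtp4, Trim30a, Usp18 and Xaf1), where 7.74% of all genes were, and in 0 were both below, where 10.3% were. Yaa 1 and Yaa 4 are the Yaa arrays left without Yaa 2 and Yaa 3, so this pair was also picked after seeing the data.

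**Figure D2:**
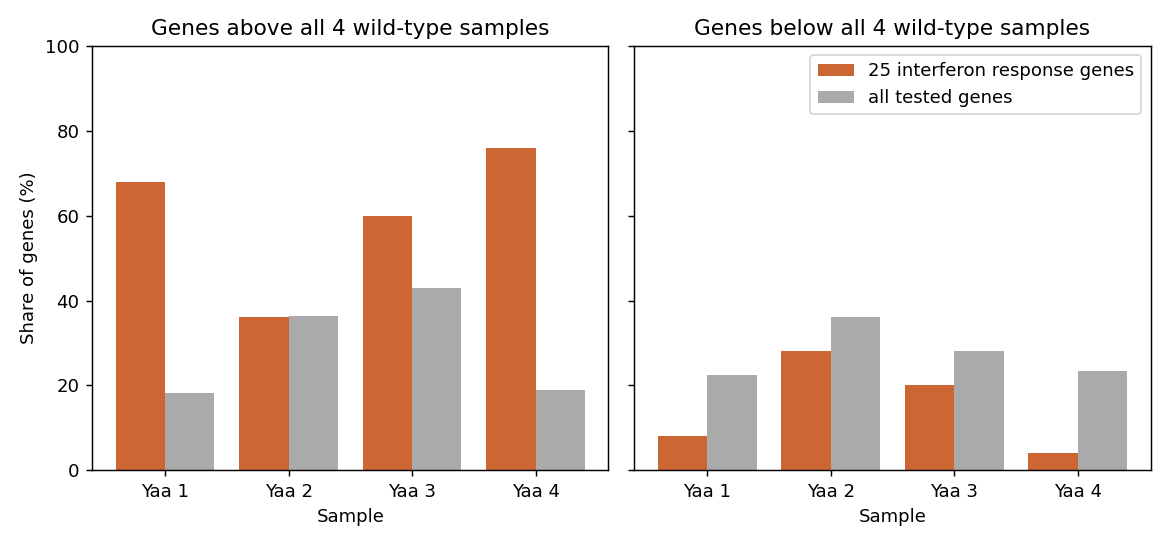
Share of genes, in percent, whose signal in a given Yaa sample was above (left) or below (right) all 4 wild-type samples, for the 25 tested interferon response genes (orange) and all tested genes (grey). Yaa 1 and Yaa 4, with 17 and 19 of 25 genes above, stand higher than all genes at 18.3% and 19%, while Yaa 2 with 9 of 25 stands level with all genes at 36.4%.

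With array weights, limma called Rtp4 and Oas1a, 2 of 25, where 0.658% of genes were called on the higher side, and 0 lower, where 0.135% were. In that fit 22 of 25 had higher means, where 45.3% of genes did, the median log2 fold change was 0.36, and 14 of 25 were listed higher at an unadjusted p under 0.05, where 5.33% of genes were. Without Yaa 2 and Yaa 3, a choice made after seeing the data, limma called the same 2 genes (0.406% of genes were called higher), 23 of 25 had higher means (45.4%) and 13 were listed at an unadjusted p under 0.05 (3.94%). Leaving out Yaa 2 alone raised that list from 4 to 11 genes, where 4.56% of genes were listed, with 0 called, 20 of 25 had higher means, where 53.8% of genes did, and the median was 0.33. Without Yaa 1, Yaa 3 or Yaa 4 alone, 4, 6 and 4 genes were listed, where 3.05%, 3.74% and 4.12% of genes were, and 18, 22 and 19 had higher means, where 47.8%, 45.3% and 46.6% did. The median was 0.22, 0.31 and 0.13 in these fits. Without wild type 1, 2, 3 or 4 alone, 20, 20, 19 and 19 had higher means, where 48.16%, 46.24%, 44.4% and 45.7% of genes did. The median was then 0.27, 0.27, 0.23 and 0.19.

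The scaling between arrays also bore on the counts. With the signals as deposited, 14 of 25 had higher means, where 16.32% of all genes did. That scaling moved the median of all genes to -0.21, and 21 of the 25 lay above it. With each array centred on its median, 16 of 25 were higher, where 26.46% of genes were, and 21 again lay above the median of all genes, which was -0.13.

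**Figure D3:**
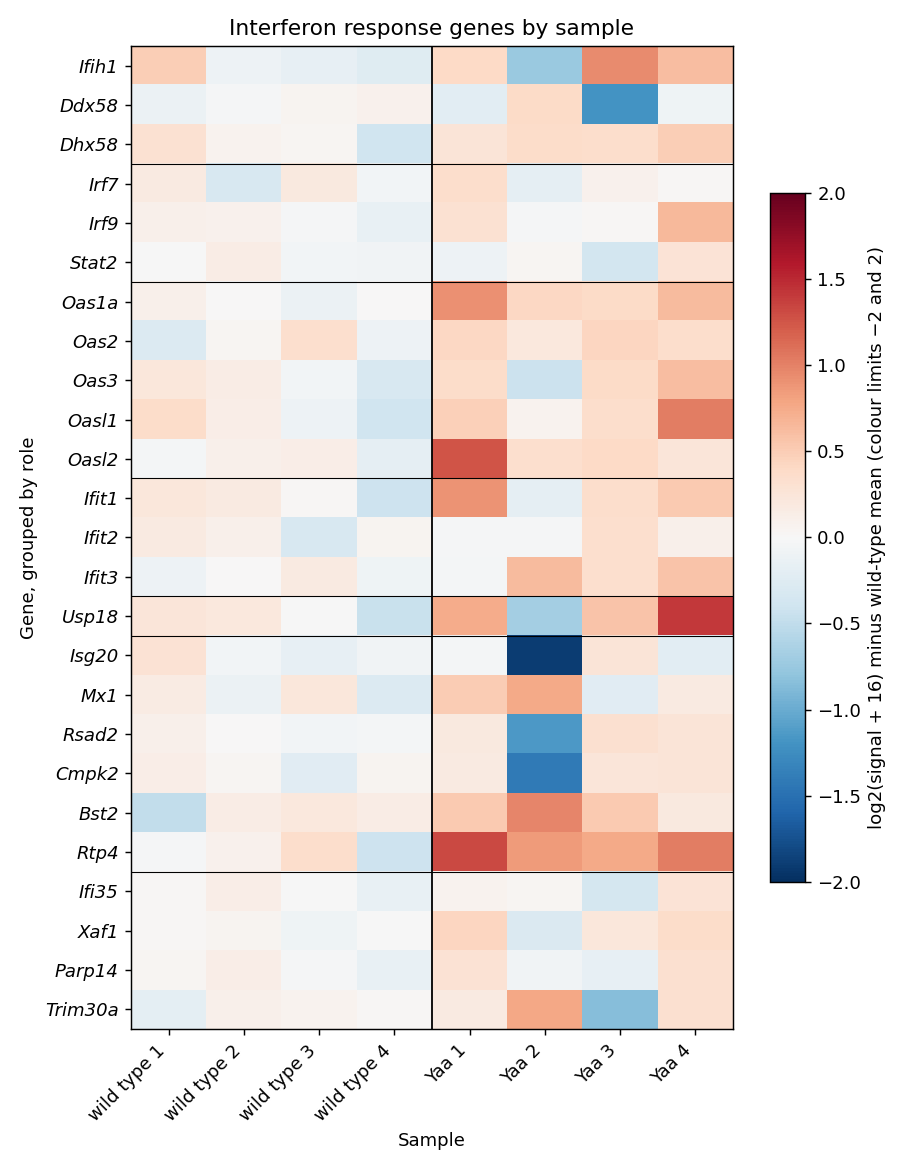
Signals of the 25 tested genes in the 8 samples as log2(signal + 16) minus the gene's wild-type mean (colour, red higher and blue lower), with genes in rows grouped by role and a line between wild type and Yaa. Yaa 1 to 4 are above the wild-type mean for 20, 13, 19 and 23 genes and wild type 1 to 4 for 17, 20, 11 and 6, and the deepest blue is Isg20 in Yaa 2, which stood at 10.02 against a wild-type mean of 11.91.

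Most 2′-5′ oligoadenylate synthetases make a short messenger from ATP when they meet double-stranded RNA, which activates RNase L. All 5 tested genes of this family on the main list had higher means in Yaa. The sign of each was the same under every alternative in which it was tested, other scalings and single samples left out included. Oas1b and Oas1c, kept on a further list of interferon-stimulated genes, had log2 fold changes of 0.06 ± 0.22 and -0.10 ± 0.145 (SE). Oas1a had log2 signals of 8.15, 8.05, 7.94 and 8.05 in wild type 1 to 4 and of 8.96, 8.46, 8.43 and 8.68 in Yaa 1 to 4. The groups did not overlap. Its log2 fold change was 0.58 ± 0.15 (SE; limma adjusted p = 0.656), and 0.78 ± 0.12 (SE; limma adjusted p = 0.0192) with array weights. Oas1a has close paralogs beside it in the genome, and how far its probe set also measures them was not tested.

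Oasl2, an oligoadenylate synthetase-like protein with ubiquitin-like domains, stood at 7.001, 7.14, 7.17 and 6.86 in wild type and 8.31, 7.39, 7.44 and 7.29 in Yaa. The groups did not overlap, and Yaa 1 lay farthest from wild type. Its log2 fold change was 0.56 ± 0.23 (SE; limma adjusted p = 0.997), and 0.33 without Yaa 1. Oasl1, its relative, which is known to restrain translation of Irf7, stood at 7.46, 7.24, 7.01 and 6.70 in wild type and 7.58, 7.18, 7.46 and 8.12 in Yaa, with a log2 fold change of 0.48 ± 0.23 (SE), and of 0.75 ± 0.22 (SE) without Yaa 2 and Yaa 3. Here Yaa 4 was the highest, and Yaa 2 and Yaa 3 lay within the wild-type range. Oas2 had 0.35 ± 0.16 (SE). Oas3 had 0.24 ± 0.23 (SE), and 0.49 ± 0.18 (SE) without Yaa 2 and Yaa 3, and was lowest of all samples in Yaa 2, at 6.77.

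Rtp4, a chaperone that brings receptors to the cell surface and an interferon-induced inhibitor of viral replication, had the largest difference of the list. Its log2 signals were 7.66, 7.76, 8.03 and 7.26 in wild type and 8.99, 8.54, 8.43 and 8.71 in Yaa. All 4 Yaa samples were above all wild-type samples. The log2 fold change was 0.99 ± 0.19 (SE; limma adjusted p = 0.412), and 1.19 ± 0.19 (SE; limma adjusted p = 0.0207) with array weights. It ran from 0.85 to 1.10 with single samples left out. A second Rtp4 probe set was too dim to be tested. With Oas1a and Oasl2, Rtp4 made up the 3 of 25 genes whose groups did not overlap on the higher side, where 2.61% of genes did not, and 0 did not overlap on the lower side, where 1.86% did not.

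Bst2, or tetherin, holds budding virions at the cell surface and is also a surface marker of plasmacytoid dendritic cells in unstimulated mice. Its log2 signals were 6.58, 7.23, 7.29 and 7.23 in wild type and 7.60, 8.06, 7.60 and 7.27 in Yaa. Wild type 1 was low, Yaa 2 was high, and Yaa 4 lay within the wild-type range. The log2 fold change was 0.55 ± 0.22 (SE; limma adjusted p = 0.997), and 0.36 ± 0.16 (SE) with array weights and 0.35 ± 0.21 (SE) without Yaa 2 and Yaa 3. This order of samples differed from that of Usp18 and Oas3, where Yaa 2 was lowest. Siglech, a marker of plasmacytoid dendritic cells, had a log2 fold change of 0.31 ± 0.18 (SE). Of the 8 tested of 9 markers of these cells 4 were higher and 4 lower, with a median of -0.04. Ly6d and Spib, which B cells also express, had -1.07 ± 0.995 and -0.88 ± 0.75 (SE), and -0.43 and -0.39 with array weights. The 8 had summed signals of 5239 to 7019 in wild type and 2072 to 10010 in Yaa, with Yaa 2 the highest and Yaa 3 the lowest, and their part in the Bst2 values was not tested.

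Usp18 removes ISG15 from proteins and blocks signalling from the interferon receptor. Its log2 signals were 7.91, 7.87, 7.65 and 7.21 in wild type and 8.39, 6.98, 8.23 and 9.08 in Yaa. In 3 of the Yaa samples Usp18 was above every wild-type sample, and in Yaa 2 it was below every one. The log2 fold change was 0.51 ± 0.40 (SE), and it was 0.91 ± 0.24 (SE; limma adjusted p = 0.379) without Yaa 2, 1.08 ± 0.23 (SE; limma adjusted p = 0.097) without Yaa 2 and Yaa 3, and 0.21 without Yaa 4. Usp18 and Oasl1 are shown sample by sample because they follow the 4 genes of smallest p in size, a choice made after their values were seen.

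**Figure D4:**
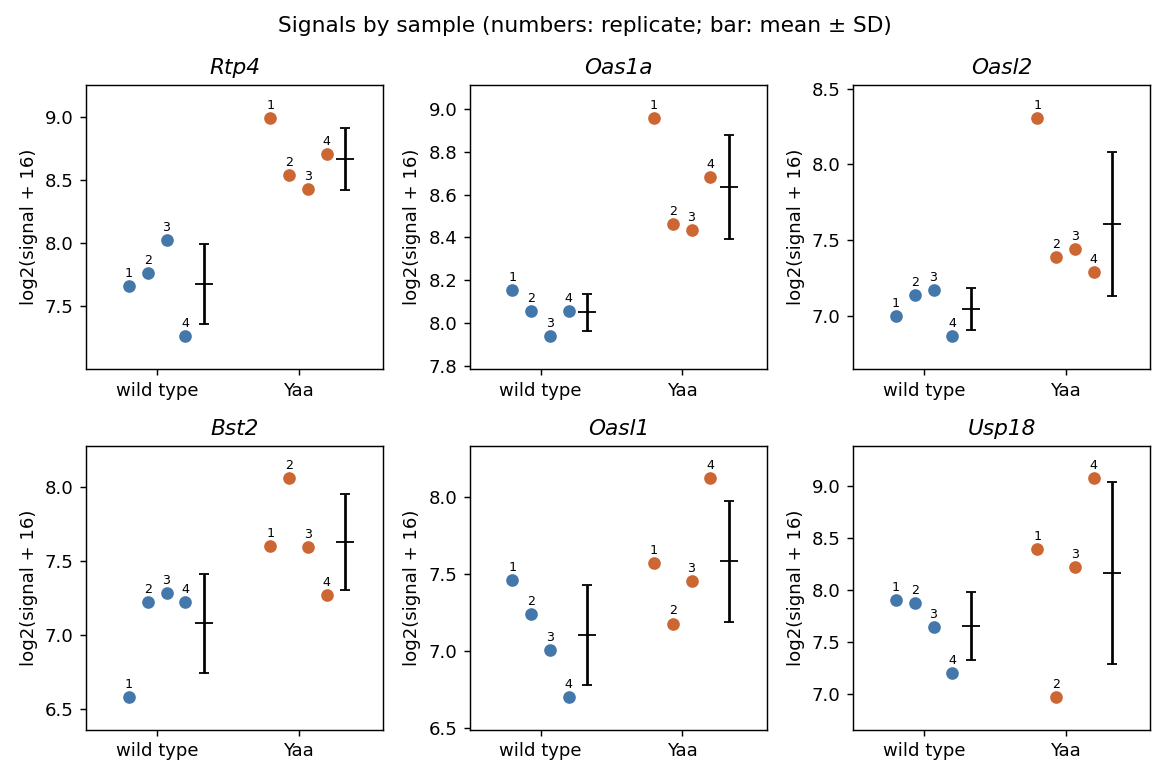
log2(signal + 16) of 6 genes in each sample, wild type in blue and Yaa in orange, with the replicate number above each point and the group mean ± SD (n = 4) as a black bar. Rtp4, Oas1a and Oasl2 do not overlap between the groups, whereas Yaa 2 is low for Usp18, at 6.98, and high for Bst2, at 8.06.

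The sensors of viral RNA did not share a direction. Dhx58, or LGP2, which modulates the other sensors, had 0.37 ± 0.17 (SE) in its brighter probe set. The dimmer stood at 5.61, 5.53, 5.46 and 5.28 in wild type and 6.13, 5.76, 5.88 and 6.38 in Yaa, with 0.57 ± 0.18 (SE; limma adjusted p = 0.88). Its groups did not overlap, with Yaa higher. Ifih1, or MDA5, which binds long double-stranded RNA, had 0.30 ± 0.34 (SE), and 0.51 ± 0.19 (SE) without Yaa 2 and Yaa 3. It was highest in Yaa 3, at 10.09, and lowest in Yaa 2, at 8.40. Ddx58, or RIG-I, which binds RNA with a triphosphate end, had probe sets that differed in sign. Its brightest probe set stood at 8.30, 8.39, 8.47 and 8.50 in wild type and 8.20, 8.79, 7.22 and 8.33 in Yaa, and it differed by -0.28 ± 0.29 (SE) on the log2 scale. Yaa 3 was the lowest sample and Yaa 2 the highest. The difference was 0.02 without Yaa 3, and -0.15 ± 0.13 (SE) without Yaa 2 and Yaa 3. Both other Ddx58 probe sets had 0.16 ± 0.36 and -0.39 ± 0.19 (SE). The groups of the latter did not overlap, with Yaa lower, at 5.74, 5.75, 5.20 and 5.62 against 5.85, 5.90, 6.30 and 5.81 in wild type.

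Of the 3 tested factors that carry the signal, limma listed 0 at an unadjusted p under 0.05 with all samples equal. Irf9, the DNA-binding subunit of the activated complex, had 0.24 ± 0.17 (SE) and was highest in Yaa 4, at 9.998. It had 0.48 ± 0.13 (SE; limma adjusted p = 0.251) without Yaa 2 and Yaa 3, and 0.38 ± 0.12 (SE; limma adjusted p = 0.255) with array weights. Irf7, the factor that amplifies interferon production and is itself induced, had 0.07 ± 0.17 (SE), and 0.19 ± 0.17 (SE) without Yaa 2 and Yaa 3. Stat2 had 2 probe sets that differed in sign. The brighter stood at 7.38, 7.53, 7.33 and 7.32 in wild type and 7.29, 7.43, 7.02 and 7.67 in Yaa, with a log2 fold change of -0.04 ± 0.16 (SE), and of 0.09 ± 0.15 (SE) without Yaa 2 and Yaa 3. The dimmer stood at 6.31, 6.15, 6.01 and 6.29 in wild type and 6.71, 6.41, 6.02 and 6.53 in Yaa (0.23 ± 0.17, SE). In both Stat2 probe sets Yaa 3 was the lowest Yaa sample, and Yaa 4 lay above every wild-type sample.

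Ifit1 and its partners bind viral RNA that lacks the host's cap methylation. Ifit1 had 0.40 ± 0.24 (SE) and Ifit3 0.38 ± 0.17 (SE), and both were higher under every alternative in which they were tested. Without Yaa 2 and Yaa 3, Ifit1 had 0.71 ± 0.21 (SE; limma adjusted p = 0.275). Ifit2 had 0.10 ± 0.16 (SE), and 0.04 ± 0.17 (SE) without those arrays. Ifit1 was highest in Yaa 1, at 7.27, and Ifit3 in Yaa 2, at 6.96. Mx1, a GTPase that blocks viral nucleocapsids and whose gene is defective in many inbred strains, had 0.30 ± 0.23 (SE). The Mx2 probe set had deposited signals of 11.6 to 30.9 in wild type and 6.35 to 37.6 in Yaa and was not tested. Of the remaining induced genes, Xaf1 had 0.19 ± 0.17 (SE), Trim30a 0.10 ± 0.30 (SE), Parp14 0.09 ± 0.15 (SE) and Ifi35 0.01 ± 0.14 (SE). Without Yaa 2 and Yaa 3 they had 0.40 ± 0.12, 0.25 ± 0.11, 0.30 ± 0.13 and 0.18 ± 0.11 (SE), and the first 3 were then listed by limma at an unadjusted p under 0.05 but not called. With array weights Xaf1 had 0.36 ± 0.11 (SE; limma adjusted p = 0.232).

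Wild type 4 was the lowest of the 8 samples in 7 of the 25 genes, where it was lowest in 5.75% of all tested genes. These were Dhx58, Irf9, Oasl1, Oasl2, Ifit1, Mx1 and Rtp4. Yaa 2 was the lowest in another 7, a share close to the 30.3% of all tested genes in which it was lowest. The 7 of Yaa 2 were Usp18, Oas3, Ifih1, Xaf1, Rsad2, Cmpk2 and Isg20. The last 3, in which it lay farthest below wild type, are described together, a choice made after their values were seen. Rsad2, or viperin, makes a chain-terminating nucleotide. Its neighbour Cmpk2 supplies the nucleotide substrate. Isg20 is an exonuclease that acts on single-stranded RNA. Rsad2 stood at 12.98, 12.88, 12.82 and 12.83 in wild type and 13.07, 11.74, 13.19 and 13.14 in Yaa. Cmpk2 stood at 10.02, 9.93, 9.66 and 9.93 in wild type and 10.06, 8.47, 10.13 and 10.14 in Yaa. Isg20 stood at 12.20, 11.87, 11.75 and 11.84 in wild type and 11.87, 10.02, 12.16 and 11.70 in Yaa. In each of the 3 genes Yaa 2 lay far below the other 7 samples, and for Rsad2 and Cmpk2 the other 3 Yaa samples all lay above the wild-type samples. That order held for these brightest probe sets but not for all: in a dimmer Cmpk2 probe set wild type 1 was the highest sample, at 8.89, and in a dimmer Rsad2 probe set Yaa 3, at 11.91, lay below wild type 1, at 12.02. Their log2 fold changes were -0.09 ± 0.29, -0.18 ± 0.35 and -0.47 ± 0.41 (SE), without Yaa 2 they were 0.26, 0.23 and -0.00065, and without Yaa 2 and Yaa 3 they were 0.23, 0.21 and -0.13.

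The mean of 5 tested erythroid markers of 8 (Slc4a1, Alas2, Klf1, Bpgm and Epb42) had the same outlying sample. It stood at 12.10 to 12.35 in wild type and at 12.23, 10.55, 12.33 and 12.15 in Yaa. The summed signal of these markers was 26980 to 32490 in wild type, 9745 in Yaa 2 and 28020 to 33030 in the other Yaa samples. The part of erythroid cells in the Rsad2, Cmpk2 and Isg20 values was not tested.

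**Figure D5:**
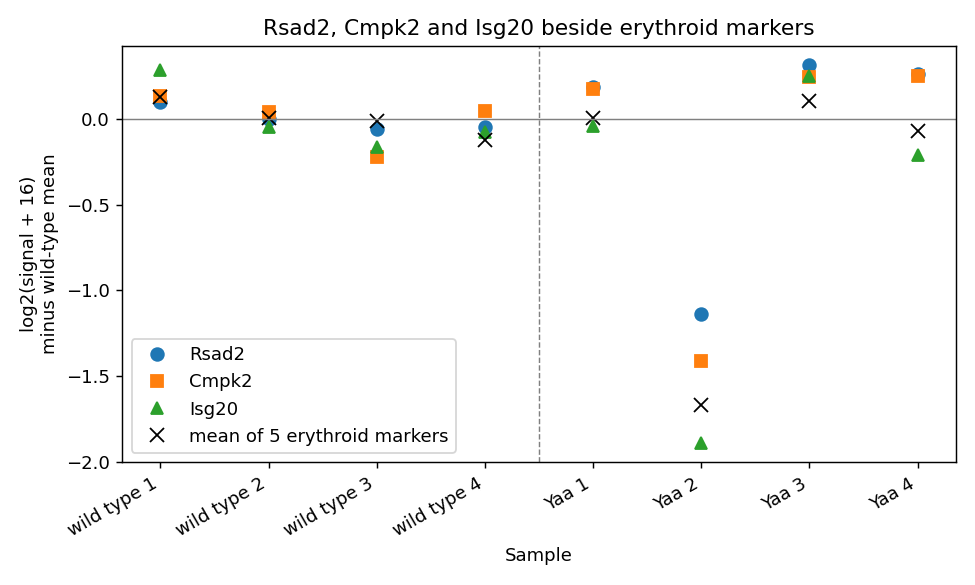
log2(signal + 16) minus the wild-type mean in each of the 8 samples for Rsad2, Cmpk2, Isg20 and the mean of 5 erythroid markers. All 4 measures are lowest in Yaa 2, where the erythroid mean was 10.55, and lie near 0 in the other 7 samples.

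Where a gene had over 1 tested probe set, 7 of 9 genes had all of them in 1 direction, the exceptions being Ddx58 and Stat2. Over all 37 tested probe sets 28 had higher means in Yaa, where 47.6% of all tested probe sets did, and 5 were listed higher at an unadjusted p under 0.05, where 2.97% were.

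Other genes of the pathway were taken from lists drawn up by their role. Of 18 interferon ligands, 9 had a probe set and 0 were bright enough to be tested: their deposited signals ran from 0.876 to 42.9, where the median of an array was 21.1 to 33.7. Of the receptor and kinase genes, Ifnar2 had 0.33 ± 0.18 (SE), Jak1 -0.13 ± 0.17 (SE), Tyk2 0.03 ± 0.14 (SE) and Ifnar1 -0.06 ± 0.41 (SE). limma called 0 of these 4 and listed 0 at an unadjusted p under 0.05. Among 14 tested genes that induce interferon, 6 were higher and 8 lower. limma called 0 and listed Tlr7 alone at an unadjusted p under 0.05, which stood at 7.31, 6.96, 7.24 and 6.85 in wild type and 8.02, 8.51, 7.62 and 7.86 in Yaa. The groups did not overlap, the log2 fold change was 0.91 ± 0.21 (SE; limma adjusted p = 0.553), and with array weights limma called Tlr7, at 0.95 (limma adjusted p = 0.0196). Of 7 tested negative regulators 2 were higher and 5 lower, and limma called 0. Socs3, an inhibitor of cytokine receptors, was the 1 listed at an unadjusted p under 0.05 and had 0.86 ± 0.36 (SE; limma adjusted p = 0.997). With array weights it had 0.45 (limma adjusted p = 0.467). It stood at 7.95, 8.78, 8.96 and 8.87 in wild type and 9.17, 10.56, 9.26 and 9.01 in Yaa, with no overlap and Yaa 2 the highest.

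A further list of interferon-stimulated genes had 48 tested. Of these 28 had higher means, where 45.8% of all tested genes did, and 20 lower, with a median log2 fold change of 0.03. limma called 0 of them, and listed 4 higher (8.33% of 48, where 3.23% of all genes were) and 0 lower at an unadjusted p under 0.05. The 3 of smallest p were Plscr1, a membrane protein that also acts in the nucleus, with 0.48 ± 0.16 (SE), the chemokine gene Cxcl10 with 0.81 ± 0.27 (SE), and Phf11d with 0.46 ± 0.16 (SE). Plscr1 stood at 7.23, 7.33, 7.36 and 7.34 in wild type and 8.19, 7.80, 7.49 and 7.70 in Yaa, with no overlap. Cxcl10 stood at 6.68, 7.32, 7.04 and 7.34 in wild type and 8.10, 7.43, 8.56 and 7.53 in Yaa, also with no overlap. The difference between these genes and the main list was not tested.

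Markers of other cell types and of handling were set beside these values. limma called 0 of the neutrophil, monocyte and heat shock genes, where 0.00444% of all probe sets were called. With array weights it called 8, 2 and 3 of them higher, where 0.658% of all tested genes were. All 9 tested of 10 neutrophil markers had higher means in Yaa, where 45.8% of all tested genes did. Their summed signals were 8413 to 13990 in wild type and 54570, 12740, 35990 and 28140 in Yaa 1 to 4. Of the 8 tested of 9 monocyte and macrophage markers, 7 were higher, with summed signals of 6346 to 6581 in wild type and of 9879, 9632, 15350 and 6910 in Yaa. The 5 heat shock genes, which respond to handling of cells, were all higher, with summed signals of 8582 to 10850 in wild type and of 15920, 12630, 17780 and 26820 in Yaa. No marker of these lists that was tested was at 0. Yaa 2, which had the fewest members above wild type, also had the lowest neutrophil and heat shock sums of the Yaa samples. Yaa 4, which had the most, had the highest heat shock sum but the lowest monocyte and macrophage sum of these samples. The part of these cells and of handling in the interferon response values was not tested.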

How the data were processed

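The authors deposited MAS5 signals (linear-scale intensity, 1 value a probe set), per the submitters' processing notes. No source used here gives the MAS5 version, scaling target or filters, and detection calls were not used. The table held 45101 probe sets, 64 of them controls. Trimmed mean signals ran from 106.2 to 192.1, so arrays were quantile normalized and taken as log2(signal + 16). Probe sets whose mean log2 signal did not exceed the median were not tested. Fold changes on this scale understate the change of dim probe sets.

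Yaa was compared with wild type in limma 3.58.1 (R 4.3.3) by lmFit and eBayes (mean-variance trend, two-sided), with Benjamini-Hochberg adjustment over all 22518 tested probe sets. The brightest tested probe set stood for a gene. Symbols came from the platform annotation: 34945 probe sets had 1 symbol, 932 several and 9160 none. Symbols were checked against GRCm38.p6 by Entrez gene ID. Promoters are RefSeq's. Figures were drawn with matplotlib 3.10.9.

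Values in every sample are given for genes of the list whose brightest tested probe set had an unadjusted p under 0.05, groups that do not overlap or 1 of the 4 largest differences, or whose probe sets disagree; any other gene or probe set shown this way was picked with its values in view. The members and lists were chosen with earlier results of these data known. The alternatives were other pseudocounts, scalings, filters and variance models, array weights, a replicate block, the mean of a gene's probe sets, and each sample left out with the tested probe sets kept. The procedure was tested on simulated data. No 2 arrays held the same values. Array controls stayed out of all tests.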

Additional observations from a re-analysis of the deposited data

Results flagged for a closer look

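In 4 of 50 groups of 4 samples (25 genes in 2 groups), 1 sample lay far from the other 3 for its group's range, where chance flags about 1 in 20. Oasl2 in Yaa 1 stood at 8.31, above the other Yaa samples at 7.29 to 7.44. Rsad2 in Yaa 2 stood at 11.74, below the others at 13.07 to 13.19. Cmpk2 in Yaa 2 stood at 8.47, below the others at 10.06 to 10.14. Bst2 in wild type 1 stood at 6.58, below the others at 7.23 to 7.29.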

How the results depend on the processing

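Of 25 genes, 15 kept the sign of their difference under every alternative in which they were tested. Among them were the 5 tested oligoadenylate synthetase genes of the main list, Rtp4, Bst2, Usp18, Ifit1 and Ifit3. The number of probe sets past the threshold, 1, was 0 with log2(signal + 1), in the upper 25 percent of probe sets and with the replicate number as a block (731 were then at an unadjusted p under 0.05), 143 with array weights, 103 without Yaa 2 and Yaa 3, and 1 to 31 with single samples left out, highest without Yaa 2. Of the members, 20 of 25 with higher means became 10 of 15 in the upper 25 percent of probe sets, and 18 to 22 with single samples left out. The 4 members at an unadjusted p under 0.05 became 1 with the values as deposited, 2 with median-centred arrays and in the upper 25 percent, 14 with array weights, 13 without Yaa 2 and Yaa 3, 7 with the mean of a gene's probe sets, and 3 to 11 with single samples left out. The median of the members, 0.24, was 0.022 with the values as deposited (0.24 above the median of all genes), 0.11 with median-centred arrays (also 0.24 above it), 0.091 in the upper 25 percent, and 0.13 to 0.33 with single samples left out. The cause of these shifts was not tested.

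Differences that turned sign did so as follows. With the values as deposited, Ifi35 was at -0.17, Ifit2 at -0.11, Irf7 at -0.16, Parp14 at -0.14, Trim30a at -0.087 and Xaf1 at -0.031. With median-centred arrays, Ifi35 was at -0.081, Ifit2 at -0.023, Irf7 at -0.068 and Parp14 at -0.048. These scalings moved the median of all genes to -0.21 and -0.13, and each of these differences lay above it. With array weights, Cmpk2 was at 0.11 and Rsad2 at 0.16, and without Yaa 2 and Yaa 3 at 0.21 and 0.23, with Stat2 at 0.092. With the mean of its probe sets Stat2 was at 0.096. With single samples left out, Cmpk2 ran from -0.33 to 0.23, Ddx58 from -0.50 to 0.023, Ifi35 from -0.078 to 0.13, Ifit2 from -0.013 to 0.15, Irf7 from -0.036 to 0.15, Rsad2 from -0.23 to 0.26, Stat2 from -0.14 to 0.074 and Trim30a from -0.12 to 0.43.

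The replicate numbers did not pair the samples: deviations from the group means correlated at -0.0053, 0.016, -0.367 and -0.128 between same-numbered samples, and 0 of 8 samples correlated best with its own number. With the replicate number as a block, 4 members were at an unadjusted p under 0.05, as without it.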
